A study of Mus musculus with 2 samples.

Results

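In all, 10 regulators of the skeletal muscle lineage, Pax3, Pax7, Myf5, Myod1, Myog, Msc, Mymk, Mymx, Met and Lbx1, were followed in single cells of the mouse aorta-gonads-mesonephros (AGM), the embryonic region where the first blood stem cells arise. They were chosen by name, with earlier results of these data known, and are 10 of the 31053 genes in the count matrices. All 10 had at least 1 unique molecular identifier (UMI, a tag that marks 1 captured RNA molecule) in each library. The data are 2 droplet libraries from AGMs of day 11 embryos, 1 from PDGFRB +/+ (WT) and 1 from PDGFRB -/- (KO) embryos, all on a C57BL/6J background. PDGFRB is the platelet-derived growth factor receptor beta, and whether embryos were pooled is not given in the sources used here. With 1 library per genotype no test was possible, and genotype, embryo sex, embryo and library cannot be told apart. All intervals below are 95% intervals that cover counting error only, exact Poisson for levels, exact binomial for shares of cells and exact conditional binomial for ratios. Beside a count of 0, the limit given is instead the level that 3 UMIs would make in the same cells. Levels are in CPM, the UMIs of a gene summed over the cells named and scaled to a total of 1000000 UMIs.

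Skeletal muscle of the trunk comes from the somites, next to the aorta. Pax3 and Pax7, paired-box transcription factors, mark dermomyotome and muscle progenitors. Myf5 and Myod1 commit these cells to the muscle fate, Myog drives their differentiation, and the membrane proteins encoded by Mymk and Mymx let the differentiated cells fuse into fibres. Msc (MyoR) is a bHLH repressor present in myoblasts. Met is the receptor for hepatocyte growth factor and Lbx1 a homeobox factor, both known for the progenitors that migrate into the limb.

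The MyoD family proteins bind the E-box, written CANNTG, whose pattern reads the same on both strands. Promoter sequence upstream of the annotated gene start is shown for 2 members. Myog was taken because it has the largest step in CPM along the muscle cells described below, and Myf5 because its level was highest earlier. The sequences are RefSeq's for GRCm38.p6, printed 5′ to 3′ on the gene's strand, with E-boxes in capitals. The Myog stretch is chr1:134289754-134289988 (+ strand, 235 bases) and the Myf5 stretch chr10:107486135-107486384 (- strand, 250 bases).
Myog: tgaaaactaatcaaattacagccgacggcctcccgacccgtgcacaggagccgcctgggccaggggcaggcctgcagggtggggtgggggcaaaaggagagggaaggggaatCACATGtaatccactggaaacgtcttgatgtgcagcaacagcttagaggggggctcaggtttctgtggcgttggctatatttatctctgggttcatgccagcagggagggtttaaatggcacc
Myf5: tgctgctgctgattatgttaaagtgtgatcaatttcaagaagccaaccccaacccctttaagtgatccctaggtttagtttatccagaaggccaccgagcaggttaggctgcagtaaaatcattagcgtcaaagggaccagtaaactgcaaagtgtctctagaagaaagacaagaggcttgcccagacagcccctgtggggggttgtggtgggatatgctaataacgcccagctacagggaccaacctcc
The Myog stretch held 1 E-box, CACATG, which begins 123 bases before the gene start, and the Myf5 stretch held none. Of 32851 RefSeq windows of 250 bases upstream, 66.2% held at least 1 E-box.

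The WT library kept 8253 cells (median 13321 UMIs) and the KO library 8165 (median 12391), after leaving out barcodes under 2000 UMIs or with 10% or more mitochondrial UMIs. Pdgfrb was at 43.1 CPM in the WT library and 7.09 CPM in the KO library, so its RNA was lower but not absent. Xist was at 793 CPM in the WT library and 0.415 CPM in the KO library, and 4 Y-linked genes together at 0.0266 and 163 CPM. The libraries shared 20 barcodes among the cells kept. A cell was called muscle-gated when at least 3 of 20 muscle structural and receptor genes, none of them a member, had a UMI, and when it passed the gate of no other class except the muscle progenitor class.

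Muscle-gated cells made up 2.16% (178 cells, 1.85 to 2.49%) of the WT library and 5.49% (448 cells, 5.003 to 6.003%) of the KO library. Their median depth was 18679.5 UMIs in WT and 17076 in KO, and the median cell held 7 of the 20 gate genes in both. At the low edge, 57 WT and 129 KO cells held 3 or 4 of them. Sclerotome-gated cells, the cartilage-forming part of the somite, were also a larger share in KO, at 19.8% against 12.2%. Erythroid cells were a smaller share, at 2.28% against 8.17%, and the part of these shares in the muscle share was not tested. Over all cells kept, the 10 members were all higher in KO, 6 of them 2-fold or more, beside 3.61% of 17628 genes 2-fold or more higher. Myog, for example, was at 31.0 CPM in the WT library and 66.1 CPM in the KO library, Myod1 at 9.38 and 21.7 CPM, and Mymx at 4.91 and 13.8 CPM.

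Each of the 10 members had its highest level in the muscle class among 11 classes with at least 50 cells in both libraries. The progenitor class and the epithelial class, with 15 WT and 14 KO cells, fell under this limit and were not ranked. The background was 5.4% of 12461 genes in WT and 5.89% of 12523 genes in KO with their highest level in that class. The ratio to the next class ran from 1.80-fold for Met in WT to 387-fold for Myog in WT. For Pax7, Myf5, Myod1, Mymk and Mymx the next class held at most 4 UMIs, so their ratios are known only within wide intervals.

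**Figure D1:**
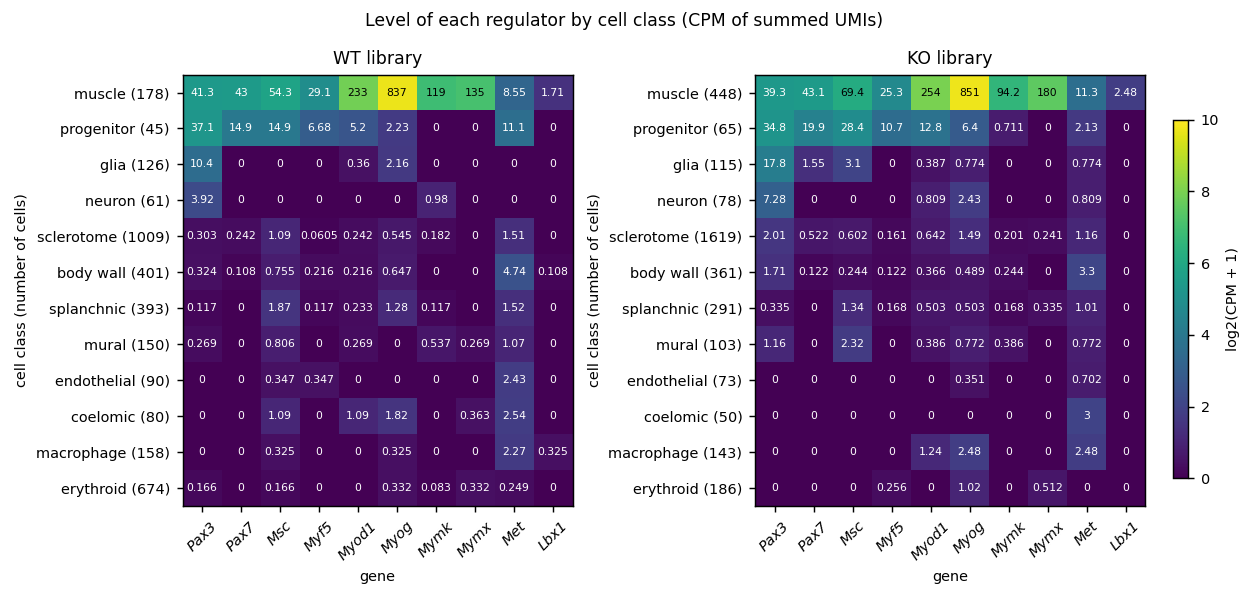
Level of each gene (columns) in each cell class (rows, with the number of cells) of the WT library (left) and the KO library (right). The printed values are CPM of summed UMIs and the colours log2(CPM + 1). The muscle row is highest for all 10 genes among the classes ranked. These leave out the progenitor class, where Met in WT is at 11.1 CPM, and the epithelial class, which is not drawn. Pax3 is also high in the progenitor row and, at a lower level, in the glia row, and Met has a low level in many classes.

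Among the progenitor factors, Pax3 (chromosome 1, 78101267 to 78197134, - strand, GRCm38) was at 41.3 CPM (35.3 to 48.0) in WT muscle-gated cells and 39.3 CPM (35.3 to 43.6) in KO muscle-gated cells. Its next class was glia, the Schwann and neural crest cells, at 10.4 CPM in the WT library and 17.8 CPM in the KO library. Muscle over glia was a log2 ratio of 1.98 (1.41 to 2.61) in WT and 1.14 (0.70 to 1.62) in KO. Of all Pax3 UMIs, 26.0% in WT and 36.3% in KO lay in muscle-gated cells. A further 46.1% and 26.9% lay in cells that passed the gates of 2 classes, which were left out of every class. Of those 2-gate cells, 228 in WT and 284 in KO passed the muscle gate. Glia held 29 WT and 46 KO Pax3 UMIs. Pax7 (chromosome 4, 139737062 to 139833528, - strand) was nearly absent from glia, with 0 UMIs in 126 WT cells and 4 in 115 KO cells, and stood at 43.0 CPM (36.9 to 49.9) in WT muscle-gated cells and 43.1 CPM (38.9 to 47.7) in KO muscle-gated cells. The muscle progenitor class was gated on 5 of 13 somite genes such as Meox1 and Tcf15. Cells that also passed the muscle gate were counted as muscle, so each cell of this class held under 3 of the 20 muscle genes. The class held 45 WT and 65 KO cells, and with under 50 cells in WT it was left out of the ranking of classes. In it Pax3 stood at 37.1 CPM (27.6 to 49.0) in the WT library and 34.8 CPM (25.8 to 46.1) in the KO library, about its level in muscle-gated cells, while Pax7 was at 14.9 CPM (9.07 to 22.9) and 19.9 CPM (13.2 to 28.8), under its level there.

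Of the MyoD family, Myf5 (chromosome 10, 107482908 to 107486134, - strand) was at 29.1 CPM (24.1 to 34.8) in WT muscle-gated cells and 25.3 CPM (22.1 to 28.8) in KO muscle-gated cells. Myod1 (chromosome 7, 46376474 to 46379099, + strand) was at 233 CPM (219 to 248) and 254 CPM (244 to 265). Myog (chromosome 1, 134289989 to 134292548, + strand), with the E-box shown above, was at 837 CPM (809 to 865) and 851 CPM (832 to 871). All 3 were lower in the progenitor class. There Myf5 stood at 6.68 CPM (3.06 to 12.7) and 10.7 CPM (5.97 to 17.6), Myod1 at 5.20 CPM in the WT library and 12.8 CPM in the KO library and Myog at 2.23 and 6.40 CPM. Myod1 was held by 65.2% of WT and 67.9% of KO muscle-gated cells, and Myog by 64.6% and 63.2%. Macrophage and erythroid cells, which should lack these genes, give the background. Myog was held by 0.633% of WT and 4.196% of KO macrophages (median 18561 and 16414 UMIs) and by 0.593% and 1.08% of erythroid cells (median 16728.5 and 19949.5 UMIs). After each cell was thinned to 2000 UMIs, Myog was held by 47.2% of WT and 46.2% of KO muscle-gated cells and Myod1 by 33.7% and 33.9%. Myf6, the other gene of the family, which lies next to Myf5 on chromosome 10, was at 15.2 CPM (62 UMIs) in WT muscle-gated cells and 9.14 CPM (81 UMIs) in KO muscle-gated cells, and at 0.739 and 0.788 CPM over all cells kept.

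Msc (chromosome 1, 14753346 to 14755992, - strand, overlapped by Gm9947 on the other strand) was at 54.3 CPM (47.3 to 61.9) in WT muscle-gated cells and 69.4 CPM (64.1 to 75.2) in KO muscle-gated cells. A single WT cell of 73980 UMIs held 55 of the 222 WT Msc UMIs there, and without it the WT level was 41.6 CPM. Msc was also found in the progenitor class, at 14.9 CPM in the WT library and 28.4 CPM in the KO library. Among the other classes ranked its levels were low, 1.87 CPM in WT splanchnic mesenchyme and 3.095 CPM in KO glia being the highest.

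The fusion genes were nearly absent outside muscle-gated cells. Mymk (chromosome 2, 27061636 to 27072179, - strand) was at 119 CPM (109 to 130) in WT muscle-gated cells and 94.2 CPM (87.9 to 101) in KO muscle-gated cells. Mymx (chromosome 17, 45600971 to 45602102, - strand) was at 135 CPM (124 to 147) and 180 CPM (172 to 190). Of all WT UMIs, 75.1% of those of each gene lay in muscle-gated cells, and most of the rest in cells that passed the gates of 2 classes. In the progenitor class Mymx had 0 UMIs in both libraries, with limits of 2.23 CPM in the WT library and 2.13 CPM in the KO library, and Mymk had 0 and 1 UMIs. The next highest class held 1 UMI of Mymk in either library, and 1 and 2 UMIs of Mymx.

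Met (chromosome 6, 17463800 to 17573980, + strand) had the smallest share of its UMIs in muscle-gated cells of the 10 members in both libraries. It stood at 8.55 CPM (5.96 to 11.9) in WT muscle-gated cells and 11.3 CPM (9.19 to 13.7) in KO muscle-gated cells, against 4.74 and 3.30 CPM in body wall mesenchyme. Muscle over body wall was a log2 ratio of 0.85 (0.17 to 1.52) in WT and 1.78 (1.1502 to 2.45) in KO. Macrophages held it at 2.27 and 2.48 CPM, and 9.07% of all WT and 24.9% of all KO Met UMIs lay in muscle-gated cells. Cells that passed the gates of 2 classes held 32.1% of the Met UMIs in each library. The most Met UMIs in any 1 cell kept were 17 in WT and 22 in KO, against 3 and 7 in any 1 muscle-gated cell. The WT progenitor class had 15 Met UMIs, 11.1 CPM (6.23 to 18.4), and the KO progenitor class 3, 2.13 CPM (0.44 to 6.23). Lbx1 (chromosome 19, 45232684 to 45235812, - strand) was barely detected. Its 7 WT and 22 KO UMIs gave 1.71 CPM (0.69 to 3.53) and 2.48 CPM (1.56 to 3.76), held by 3.93% and 3.79% of muscle-gated cells. In WT the interval of its ratio to the next class reached below 0, so its place in the muscle class was not separable from counting error there.

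Most muscle-gated cells held several members together. The median cell held 4 of the 10 in both libraries, 75.3% of WT and 73.9% of KO cells held 3 or more, and 11.8% and 10.3% held none. In the progenitor class the median was 1, and 46.7% and 49.2% held none.

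The members fell into an early and a late block of co-detection. The early block was Pax3, Pax7, Msc and Myf5. Among WT cells with Pax3, 74.0% (37 of 50, 59.7 to 85.4%) also held Pax7, against 25.8% of the cells without Pax3, and in KO 68.5% (76 of 111, 59.0 to 77.0%) against 25.5%. Among cells with Msc, 72.0% in WT and 78.6% in KO held Pax7, against 26.6% and 16.9% of the cells without Msc. Among cells with Myf5, 60.4% and 69.6% held Msc, against 14.4% and 18.5% of the cells without Myf5. Thinned to 2000 UMIs the Pax3 and Pax7 overlap was 1 of 16 cells in WT and 7 of 33 in KO, too few to read. In these 3 pairs the unthinned intervals of cells with and without the first gene did not overlap in either library. The early block thus rests here on unthinned values. The median depth of Pax3, Pax7, Msc and Myf5 cells was 25406.5, 22643, 18119 and 19651 UMIs in WT, against 18679.5 for all muscle-gated cells. In KO it was 21843, 20186.5, 19994 and 21125.5 UMIs, against 17076. The part of depth in this block was not tested. Met went with the early block, since 60.7% of WT and 65.2% of KO cells with Met held Pax7, against 35.3% and 30.9% of those without. For Met the intervals overlapped in WT and not in KO.

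The late block was Myod1, Myog, Mymk and Mymx. Among cells with Myog, 86.1% (99 of 115, 78.4 to 91.8%) in WT and 85.5% (242 of 283, 80.9 to 89.4%) in KO held Myod1, against 27.0% and 37.6% of the cells without Myog. Among cells with Mymx, 98.4% (60 of 61, 91.2 to 99.96%) and 94.01% (157 of 167, 89.3 to 97.1%) held Myog, while 52.2% and 55.5% of the cells with Myog held Mymx. Both shares count the same cells with both genes. Which direction is higher is therefore set by the number of cells that hold each gene, which is larger for Myog. The same holds for any pair read in both directions. The cells without Myog are the sharper measure, and 1.59% of them in WT and 6.06% in KO held Mymx. Thinned to 2000 UMIs, 94.3% of WT and 95.8% of KO cells with Mymx still held Myog. Among cells with Mymk, 90.3% and 92.4% held Myog. Between the fusion genes, 80.3% of WT and 70.1% of KO cells with Mymx held Mymk, and 68.1% and 68.4% of those with Mymk held Mymx.

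Between Pax3 or Pax7 of the early block and Mymx of the late block, detection went the other way. Of cells with Pax3, 12.0% in WT and 12.6% in KO held Mymx, against 43.0% and 45.4% of cells without Pax3. Of cells with Pax7, 21.4% and 17.9% held Mymx, against 42.6% and 48.3% of cells without Pax7. Myod1 was placed in the late block by its overlap with Myog, but was not held less often by cells with Pax3. It was held by 66.0% of WT Pax3 cells and 71.2% of KO Pax3 cells, close to the 64.8% and 66.8% of cells without Pax3, and by 67.9% of KO cells both with and without Myf5. Pax7 and Myog were held together by many cells, to a degree that depended on depth. Of cells with Pax7, 62.9% (44 of 70, 50.5 to 74.1%) in WT and 51.9% (84 of 162, 43.9 to 59.8%) in KO held Myog, against 65.7% and 69.6% of cells without Pax7. The intervals of cells with and without Pax7 overlapped in WT and not in KO, and the share was lower with Pax7 in each. Thinned to 2000 UMIs, 14.3% of WT cells with Pax7 (1 of 7) held Myog against 48.5% of those without, and 23.7% of KO cells (9 of 38, 11.4 to 40.2%) against 48.3% (43.4 to 53.2%). Cells with both genes had a median of 24439 UMIs in WT and 21188.5 in KO, against 15272 and 15857 in cells with Myog alone, and the part that depth or doublets have in this overlap was not tested.

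**Figure D2:**
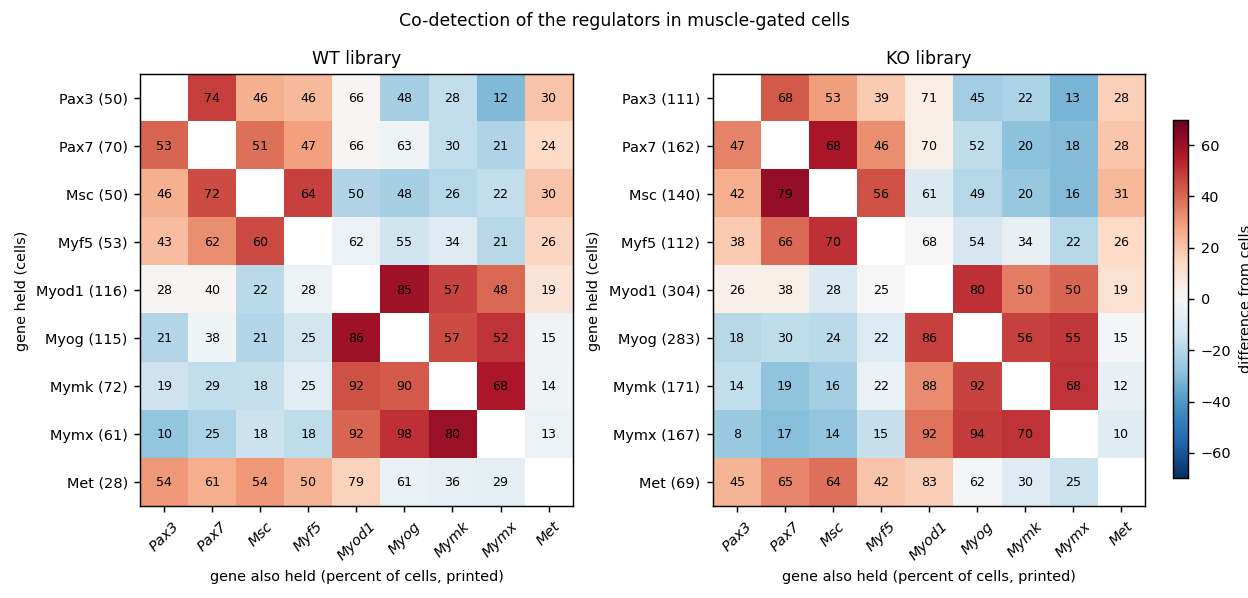
Co-detection in muscle-gated cells of the WT library (left) and the KO library (right). Each square gives the percent of the cells with the row's gene (number in brackets) that also held the column's gene. Red squares are above and blue squares below the share in cells without the row's gene, in percentage points. Pax3, Pax7, Msc and Myf5 form a red block, Myod1, Myog, Mymk and Mymx another, and the squares between Pax3 or Pax7 and Mymx are blue. Lbx1 is left out for its low number of cells.

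The summed level of the 20 gate genes, which contain no member, put the same genes in order. WT cells with Pax3 had a median of 540 CPM of these markers, those with Pax7 665, with Msc 699, with Myf5 733, with Myod1 3341, with Myog 4260, with Mymx 7173 and with Mymk 10390. In KO the medians were 619, 679, 704, 804, 2956, 5372, 8034 and 12889 CPM for the same genes in the same order. The order of these 8 genes was therefore the same in both libraries. Neighbours did not separate, since the ranges between the quartiles of Pax3, Pax7, Msc and Myf5 cells overlapped, as did those of Myod1 and Myog cells. The upper quartile of Pax3 cells, 825 CPM in the WT library and 1005 CPM in the KO library, lay under the lower quartile of Mymx cells, 3381 and 3458 CPM. Met cells were at 660 CPM in the WT library and 755 CPM in the KO library, among the early genes. Lbx1 cells were at 47295 CPM in WT, from 7 cells, and 1127 CPM in KO, from 17 cells, and their place differed between the libraries.

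**Figure D3:**
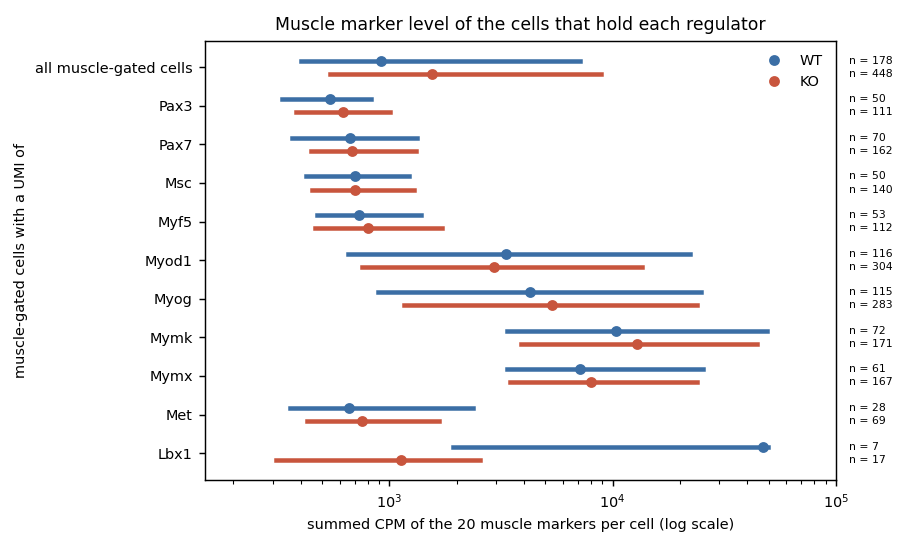
Summed level of 20 muscle markers, none of them a member, in the muscle-gated cells that held each gene, on a log scale. Points are medians, bars run from the lower to the upper quartile and n is the number of cells. The medians run upward from Pax3 to Myog and the fusion genes in both libraries.

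When muscle-gated and progenitor cells were placed in 5 bins of this marker level, with the same limits in both libraries, the profile differed between genes. Bins held 32 to 59 WT and 88 to 114 KO cells, and the lowest bin was mostly progenitor-class cells, 41 of 59 in WT and 55 of 88 in KO. Those cells have few of the muscle genes by the definition of their class. Pax3 was highest in bin 2, at 64.4 CPM (50.7 to 80.8) in the WT library and 95.8 CPM (82.7 to 110) in the KO library, and was at 7.18 and 5.01 CPM in the top bin, where 1 WT cell held 5 of the 6 WT UMIs. The log2 ratio of the top over the lowest bin was -2.74 (-4.22 to -1.56) in WT and -2.69 (-3.80 to -1.73) in KO. Pax7 was highest in bin 3, at 97.1 CPM (76.0 to 122) and 86.4 CPM (73.9 to 100), with 14.5 and 13.7 CPM in the lowest bin and 8.37 and 7.01 CPM in the top one. The Pax7 intervals of bins 2 and 3 overlapped in both libraries. For Pax3 the interval of bin 2 overlapped those of bins 1 and 3 in WT but not in KO.

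Myf5 was high in the middle bins and again in the top bin. It was highest in bin 3 of WT, at 82.3 CPM (62.9 to 106), and about level over bins 2 and 3 of KO, at 42.1 and 41.1 CPM. It was at 2.89 CPM (0.35 to 10.5) and 8.23 CPM (4.61 to 13.6) in bin 4, and at 22.7 CPM (13.7 to 35.5) and 20.03 CPM (14.3 to 27.3) in the top bin. The intervals of bins 4 and 5 did not overlap in either library, and Myf5 was held by 24.4% of the top-bin cells in WT and 21.5% in KO. With 3 bins in place of 5, the KO top over lowest log2 ratio of Myf5 was -0.19 instead of 1.39. Myf6, its neighbour on the chromosome, was highest in that same top bin, at 41.9 CPM in the WT library and 34.1 CPM in the KO library.

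Myod1 was at 14.5 and 8.06 CPM in the lowest bin and 501 and 493 CPM in the top one. Myog went from 1.99 CPM (4 UMIs) in the WT library and 2.82 CPM (7 UMIs) in the KO library to 2186 and 2171 CPM, a log2 ratio of 10.10 (8.74 to 11.98) and 9.59 (8.54 to 10.90). In CPM its largest step lay between bins 3 and 4, from 162 to 2027 CPM in WT and from 178 to 1522 CPM in KO. In fold the step from the lowest bin to bin 2 was larger, since Myog was already at 62.7 CPM in bin 2 of WT and 40.1 CPM in bin 2 of KO. Mymx stepped up between bins 3 and 4, from 5.40 to 370 CPM in WT and from 5.08 to 384 CPM in KO, and was then level in WT at 349 CPM. Mymk rose from 6.74 CPM in bin 3 to 119 CPM in bin 4 and 466 CPM in bin 5 of WT. In KO it rose from 9.14 to 78.4 and 333 CPM over the same bins. Msc was highest in bin 2 of KO, at 146 CPM (130 to 164), and in bin 4 of WT, at 95.5 CPM (73.8 to 121), where the single cell described above supplied 55 of 66 UMIs. Without that cell bin 4 of WT was at 17.8 CPM, under bins 2 and 3. Met was at 17.8 CPM (12.4 to 24.7) in bin 3 and 3.005 CPM (1.10 to 6.54) in the top bin of KO, while in WT the intervals of its bins overlapped, as did those of Lbx1 in both libraries.

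**Figure D4:**
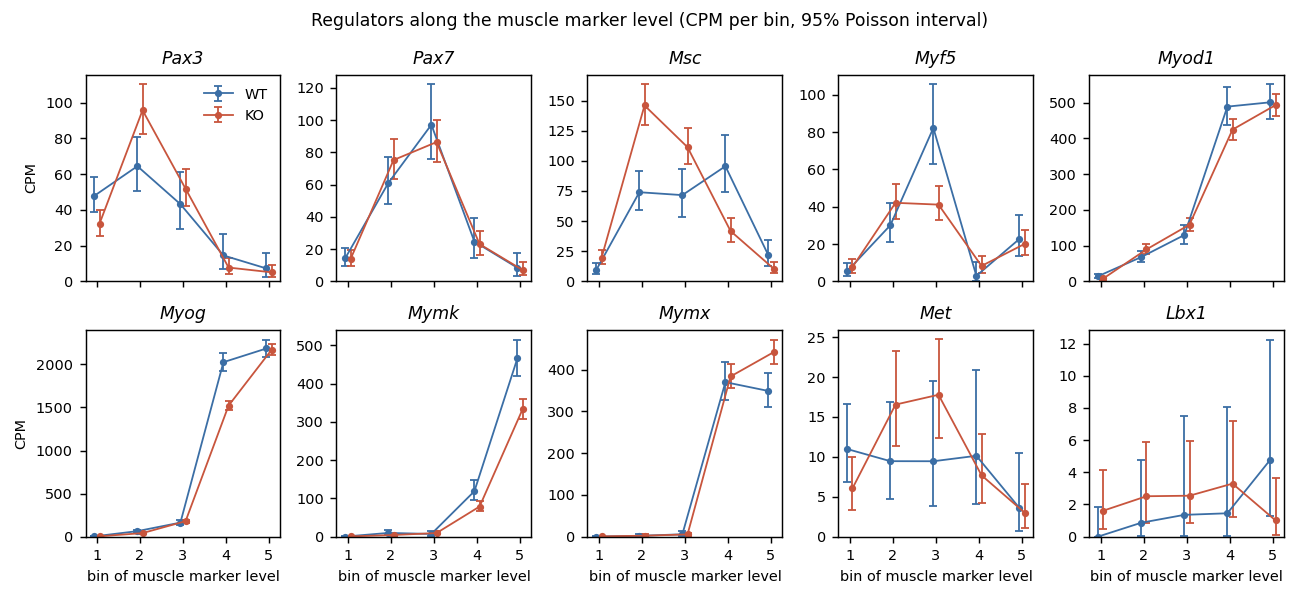
Level of each gene in CPM in 5 bins of the muscle marker level, from the lowest (1) to the highest (5), for WT (blue) and KO (red), with 95% Poisson intervals. Each panel has its own axis. Pax3 and Pax7 peak in bins 2 and 3, Myog and Mymx step up between bins 3 and 4, and Mymk rises from bin 3 to bin 4 and again to bin 5.

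Cell cycle genes differed between cells grouped by Pax7 and Myog. Mki67, Top2a, Cdk1 and Ccnb1, genes of dividing cells, summed to 1503 CPM in the WT library and 1253 CPM in KO library cells with Pax7 and no Myog, to 1387 and 1206 CPM in cells with both, and to 507 and 571 CPM in cells with Myog and no Pax7. The cell cycle inhibitor Cdkn1c went the other way, at 2455, 3846 and 6409 CPM in WT and 2929, 5555 and 8001 CPM in KO over these 3 groups. For the dividing-cell genes the intervals of both Pax7 groups overlapped in each library and lay above that of the cells with Myog alone. Along the marker bins all 4 genes were lowest in the top bin in both libraries, while in WT Cdk1 was at 251 CPM in the lowest bin and 266 CPM in bin 4, and Ccnb1 at 132 and 188 CPM. Cdkn1a (p21), another inhibitor, was at 0 (limit 4.88), 101 and 589 CPM in WT and 5.65, 65.1 and 493 CPM in KO.

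Within muscle-gated cells, none of the 10 members was 2-fold or more apart between KO and WT. This was near the background, since 4.77% of 11949 genes with at least 20 UMIs were that far apart. Of those, 293 were higher and 277 lower in KO. The log2 ratios of KO over WT had a median of 0.07 over the members, with 7 higher and 3 lower, and that of all genes was -0.02. Pax7 was at a log2 ratio of 0.00 (-0.26 to 0.27), Pax3 at -0.07 (-0.34 to 0.20), Myf5 at -0.20 (-0.53 to 0.13) and Myog at 0.02 (-0.03 to 0.08). Intervals clear of 0 were found for Mymx at 0.41 (0.27 to 0.56), Msc at 0.36 (0.13 to 0.58), Mymk at -0.34 (-0.50 to -0.18) and Myod1 at 0.12 (0.01 to 0.24). Met was at 0.40 (-0.17 to 1.00) and Lbx1 at 0.54 (-0.74 to 2.01), and the Lbx1 interval reached past 2-fold.

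These ratios moved with the definition of a muscle cell. Where cells that passed the gates of 2 classes were kept, 406 WT and 732 KO cells entered, 228 and 284 of them 2-gate cells. Mymk then turned to 0.34 and Myog to 0.55, and all 10 genes were higher in KO. The share of all genes higher in KO is not given for this setting, and the part of the 2-gate cells in it was not tested. Under a mitochondrial share of 5%, with 76 WT and 185 KO cells, Myog stood at -0.42, Mymx at -0.28, Myod1 at -0.21, Myf5 at -0.70 and Pax3 at 0.64. Without the 1 cell of each library with most Msc UMIs, Msc was at 0.71 (0.46 to 0.97). Met and Msc alone were above 0 in all 14 settings tried, which reached from 0.16 to 0.47 for Met and from 0.11 to 0.71 for Msc. These settings reuse the same libraries and are not independent. In the progenitor class Met went the other way, at -2.38 (-4.81 to -0.56), from 15 WT and 3 KO UMIs. The muscle share, in contrast, was higher in KO in all 7 alternatives tried, at 0.87 to 1.59 for the log2 ratio of the shares.

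**Figure D5:**
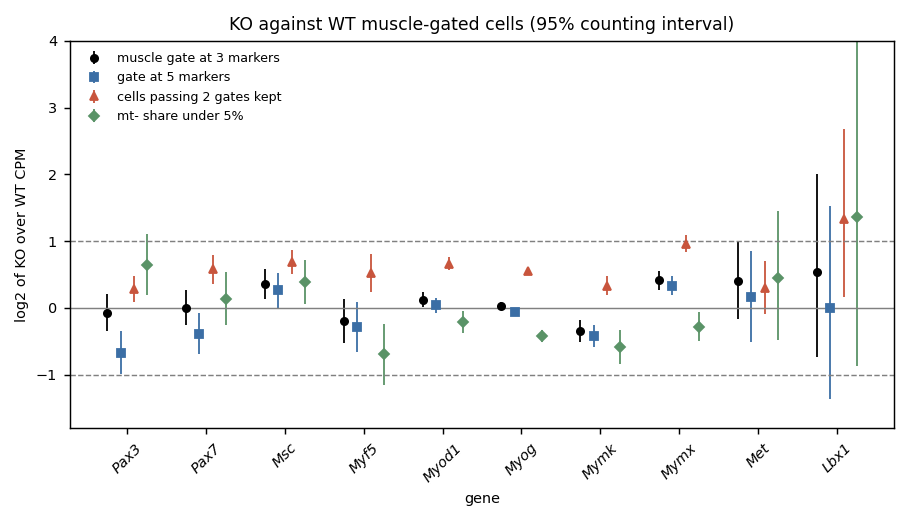
Log2 ratio of KO over WT level in muscle-gated cells for each gene under 4 definitions of the cells, with 95% intervals for counting error. Dashed lines mark 2-fold. Under the definition used in the text all points lie within 2-fold. Lbx1 lies beyond it under 5% mitochondrial and with 2-gate cells kept, and Met and Msc alone stay on 1 side of 0 under all 4 definitions. The upper end of 1 Lbx1 interval runs off the axis.

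Outside the muscle and progenitor gates the libraries also differed in Pax3. In cells outside the muscle, progenitor and 2-gate classes it was at 1.22 CPM (131 UMIs) in the WT library and 3.07 CPM (304 UMIs) in the KO library, a log2 ratio of 1.34 (1.04 to 1.64). These 7254 WT and 6964 KO cells included 4097 and 3931 that passed no gate. The ungated cells held 27 of the 32 WT and 46 of the 64 KO Pax7 UMIs found there. Whether they include muscle progenitors was not tested. In sclerotome-gated cells Pax3 was at 0.303 CPM (5 UMIs) in the WT library and 2.01 CPM (50 UMIs) in the KO library. Over all cells outside the muscle, progenitor and 2-gate classes, Myog was at 0.771 and 1.62 CPM, Pax7 at a log2 ratio of 1.12 and Met at -0.20 (-0.50 to 0.10). RNA of barcodes with at most 100 UMIs, which carry free RNA, held Myog at 25.4 CPM in the WT library and 50.04 CPM in the KO library and Pax3 at 2.82 and 4.67 CPM, and the part of free RNA in these low levels was not tested.

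Other regulators of the pathway were read from 4 lists. Muscle-gated cells were compared with the cells outside the muscle, progenitor and 2-gate classes, called outside the muscle gates below. Of 14 upstream somite and muscle regulators, 7 were 2-fold or more higher in muscle-gated cells than outside the muscle gates in each library. The background was 6.37% of 11949 genes in WT and 6.36% in KO. The somite homeobox gene Meox1 was at 43.7 CPM in WT and 34.5 in KO. None of the 14 was 2-fold or more higher in KO and 3 were that much lower, namely Tcf21 at a log2 ratio of -1.93, Sim1 at -1.07 and the somite factor Tcf15 at -1.02. For these and the lists below, the share of all 11949 genes 2-fold or more apart was 4.77%, with 277 lower and 293 higher. Sim1, Tcf21, and below Cxcr4 and Hgf, were named after their values were seen. Meox1, Tcf15 and Sim1 are also genes of the progenitor gate. Tcf21 is a gene of the splanchnic gate and was lower in muscle-gated cells than outside the muscle gates. It was at 39.6 against 77.7 CPM in WT and 10.4 against 48.2 CPM in KO. Of 19 cofactors and repressors of the MyoD family none was 2-fold apart between libraries. Mef2c, a partner in activating muscle genes, was at 412 and 399 CPM, the inhibitor Id3 at 483 and 425 CPM and the E-protein gene Tcf4 at 305 and 318 CPM. Id3 was below its level outside the muscle gates, at 635 and 672 CPM. Vgll2, a TEAD cofactor, came nearest to 2-fold, at 94.8 CPM in WT muscle-gated cells and 180 CPM in KO ones, a log2 ratio of 0.93 (0.76 to 1.09). Of 5 migration partners of Met and Lbx1, Cxcr4 alone was 2-fold higher in KO, from 5 and 26 UMIs. The adaptor gene Grb2 was at 95.3 and 97.0 CPM and the ligand gene Cxcl12 at 66.7 and 66.9 CPM. Hgf, the ligand of Met, had 17 and 20 UMIs in muscle-gated cells and was higher outside them, at 10.6 and 9.82 CPM. Of 12 cell cycle genes none was 2-fold apart, with Cdkn1c at 3887 and 5418 CPM, Top2a at 519 and 438 CPM and Ccnd3 at 287 and 280 CPM.

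The genes most like each member were sought by Pearson's r of log2(CPM + 1) over 23 class-by-library sums, which share their libraries, so the values are descriptions. Myf5, Pax7 and Myod1 all had Vgll2 first, at r of 0.98, 0.97 and 0.99, with Mrln and Fitm1 next for Myf5, Mrln and Fgfr4 for Pax7, and Mylk4 and Cacng1 for Myod1. Myog was most like Myoz2, Cacng1 and Chrng, Mymk like Dhrs7c, 2310002L09Rik and Myoz2, and Mymx like Trim54, Myot and Dhrs7c. Msc was most like Trim63, Fgfr4 and Mrln. Pax3 was apart, with Ppp1r14c, Islr2 and Rxrg at r of 0.89, 0.88 and 0.87, and Met had Mybpc1, Slc5a6 and Ryr1 at 0.83, 0.81 and 0.81. Chrng, Fitm1, Fgfr4 and Vgll2 belong to the muscle or progenitor gate.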

How the data were processed

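The libraries were made on the 10x Chromium Controller with 3′ chemistry from dissociated AGMs, loaded to recover 7000 cells. The authors' processing notes name Cell Ranger 3.1.0 and the GRCm38 (mm10) build. The deposited matrices hold raw UMI counts for all barcodes, unfiltered. Barcodes with 2000 or more UMIs and under 10% mitochondrial UMIs were kept. A cell class required UMIs of 3 of 20 muscle markers, of 5 of 13 progenitor markers, or of 3 to 6 markers of the other classes. The last limits were set after the data were seen, and cells passing the gates of 2 classes were left out. The study kept doublets, no caller was run, and the 2-gate rule removes only some. UMIs were summed per class and scaled to CPM. Cells were thinned to 2000 UMIs with seed 20. Python 3.11.15, numpy 2.4.6, scipy 1.17.1 and R 4.3.3 with edgeR 4.0.16 (TMM factors only, as an alternative scaling) were used. The code of the intervals was checked on counts simulated from the same Poisson and binomial models. That check leaves out the spread between cells, so it does not show how the intervals hold where 1 cell has many UMIs. The members and lists were chosen with earlier results of these data known. The text names all members, Myf6, the 2 to 4 genes of each list with most UMIs in muscle-gated cells and the 3 genes most like each member. Promoter entries matched 4 of the 10 members. Some genes of the lists are not reported here.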

Additional observations from a re-analysis of the deposited data

Results flagged for a closer look

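With 1 library per genotype none of these differences was tested, and the intervals cover counting error only. For 4 members the KO over WT ratio had opposite signs in different cells, with each interval clear of 0. Leaving out the 1 cell of each library with most UMIs of the gene in those cells, a check added after the data were seen, took the interval of the negative ratio given here across 0 for Pax3, Myog and Myod1, and turned the ratio positive for Msc. Pax3 had a log2 ratio of 2.73 in sclerotome-gated cells, from 5 WT and 50 KO UMIs, and -0.57 in the lowest bin of the muscle marker level, from 96 and 80 UMIs. In that bin 1 WT cell held 23 of the 96, and without the top cells the ratio was -0.43 (-0.93 to 0.06). Myog had 1.45 in sclerotome-gated cells, from 9 and 37 UMIs, and -0.65 in bin 2, or -0.36 (-0.92 to 0.22) without the top cells. In bin 4, however, Myog was at -0.38 (-0.48 to -0.29) without them. Myod1 had 0.39 in bin 2 and -0.20 in bin 4, or -0.14 (-0.33 to 0.06) without them. Msc had 1.03 in the lowest bin and -1.20 in bin 4, where 1 WT cell held 55 of the 66 WT UMIs, and 1.10 (0.17 to 2.17) in bin 4 without the top cells.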

How the results depend on the processing

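Of 315 alternative values, 238 stayed inside the interval of the value given or, for counts, close to it. Staying inside the interval did not require the same sign. A further 71 moved out of that range, and 6 took the opposite sign to a ratio whose interval was clear of 0. The muscle-gated share of KO cells was 4.82% at 1000 UMIs, 6.35% under a mitochondrial share of 5%, 8.13% with the gate at 2 markers, 3.91% with the gate at 5 and 8.97% with cells passing 2 gates kept. In WT it was 4.24% at 2 markers, 1.47% at 5 and 4.92% with those cells kept. The log2 ratio of the shares was 0.94 at 2 markers and 0.87 with those cells kept. Of Myog cells, 75.6% of WT held Myod1 at 1000 UMIs, 78.2% where 2 UMIs were asked of a gene and 59.5% after thinning, and in KO 90.6% at 5000 UMIs and 54.6% after thinning. Of Pax7 cells, 46.8% of WT held Myog at 2 UMIs and 14.3% after thinning, and in KO 62.9% under 5% mitochondrial, 61.4% at 5 markers, 36.6% at 2 UMIs and 23.7% after thinning. The number of members highest in muscle stayed close to 10 in all 18 alternative values. It was under 10 in WT where 2 UMIs were asked, since no WT cell held more than 1 Lbx1 UMI. Between libraries 1 member, Lbx1, was 2-fold apart under 5% mitochondrial, at 2 markers and with 2-gate cells kept, and 1.31% of all genes were so at a minimum of 100 UMIs. The ratio turned for Myod1 to -0.21 and for Mymx to -0.28 under 5% mitochondrial, for Mymk to 0.026 at 2 markers and 0.34 with 2-gate cells kept, and for Myod1 to -0.044 with bins weighted alike. With 3 bins Myf5 in KO was at -0.19 top over lowest. The cause of these shifts was not tested. No paired analysis was possible because each genotype had 1 library. Genes under about 20 UMIs, Lbx1 first, are limited by depth.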
